A study of Homo sapiens with 18 samples.

Results

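The 3 ARID2 knockout (KO) lines of the human melanoma cell line SKmel147 were compared with the 2 control lines of the same cell line across all genes. The members are the 10 SKmel147 libraries of the 18 libraries in the series: 6 of KO lines named KO1.4, KO1.5 or KO3.20, and 4 libraries of the control lines NT and Par. Every line has 2 libraries. SKmel147 is an NRAS-mutant line from metastatic melanoma. The KO lines and NT were stably infected with a lentiviral Cas9 and a PLKO vector for a guide RNA, and Par carries no construct, per the labels. NT therefore shares the infection with the KO lines and Par does not. The labels do not spell out NT, do not say whether a line is 1 clone or a pool, and do not tell whether paired libraries were grown as separate cultures. The p-values therefore measure how far these libraries scatter, and that scatter may be only technical. The series also holds 8 libraries of 501mel, a BRAF-mutant melanoma line with 2 KO lines and 2 control lines, used below only where the KO effect differed between the cell lines.

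ARID2 is the DNA-binding subunit that marks PBAF, 1 of the forms of the SWI/SNF chromatin remodelling complex. SWI/SNF complexes move and evict nucleosomes with the energy of ATP hydrolysis and so change which promoters and enhancers transcription factors can reach. Subunits of PBAF, ARID2 among them, are found mutated in melanoma.

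Total counts ranged from 21266522 to 35670140 per library. Counts on ribosomal RNA symbols fell into 2 ranges. They were 1.89 to 2.55% in 5 libraries (both of KO1.4 and 1 each of KO1.5, KO3.20 and NT). In the other 5, both of Par and 1 each of KO1.5, KO3.20 and NT, they were 0.593 to 0.678%. The ranges were thus not balanced between KO lines and controls. ARID2 RNA was at 39.8 to 57.0 CPM (counts scaled to library size) in the KO libraries, against 62.3 to 72.8 CPM in the controls, a log2 fold change of -0.43 ± 0.08 (SE). The lines differed, at -0.25 in KO1.4, which was not called (adjusted p = 0.228), -0.41 in KO1.5 and -0.64 in KO3.20, and ARID2 did not pass with the line as the replicate (adjusted p = 0.302). ARID2 lies on chromosome 12, where the 40 tested protein-coding neighbours had a median of -0.17. SOX10, a factor of the melanocyte lineage, was at 155 to 223 CPM in the KO libraries and 146 to 250 CPM in the controls. The pigment cell marker PMEL was at 0.0472 to 0.214 CPM in the KO libraries and 0.036 to 1.35 CPM in the controls, and MLANA at 0.472 to 1.46 CPM and 0.684 to 1.43 CPM, so both were near absent. AXL, a marker of undifferentiated melanoma, was at 830 to 1170 CPM in the KO libraries and 1170 to 1470 CPM in the controls. Endothelial markers summed to 0.0733 to 0.365 CPM in the KO libraries and 0.112 to 0.645 CPM in the controls, and blood markers to 0.147 to 0.425 CPM and 0.0339 to 0.224 CPM. CD3E, HBB and DCN had no count. LUM, a fibroblast marker as is DCN, was at 5.17 to 11.9 CPM in the KO libraries and 6.81 to 9.71 CPM in the controls. Of the epithelial markers, KRT18 was at 35.8 to 41 CPM in the KO libraries and 36 to 54.8 CPM in the controls. KRT8 was at 2.69 to 6.3 CPM and 1.76 to 4.43 CPM. The remaining fibroblast and epithelial markers stayed below 1 CPM.

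Of 18361 genes tested, 1482 (8.07%) were called higher and 1763 (9.6%) lower in the KO lines at an adjusted p under 0.05, with each line given equal weight. In such bulk RNA, fewer cells expressing a gene and less of its RNA per cell cannot be told apart. The changes were mostly small. The median size among called genes was 0.54 on the log2 scale, 1483 called genes changed by less than 0.5, and 53 rose and 185 fell by more than 2. All 6 KO libraries lay above all 4 control libraries in 626 of the called genes and below them in 746. Calling selects for such separation, and it was not counted over all genes tested. Neither these counts nor the non-overlap given below for chosen genes adds to the calls. Called with the same sign in each KO line were 291 genes higher (1.58%) and 331 lower (1.8%). The contrasts of the KO lines share the 4 control libraries, so their agreement is not independent. The control lines themselves differed: NT against Par gave 1702 calls (9.27%), and 820 of the genes called in the KO comparison changed more between NT and Par than between KO and controls. Across 15347 genes, NT minus Par had a Spearman correlation of -0.382 with GC content, KO minus controls of -0.0528, and R1 minus R2 within a line of -0.577 to 0.45. Genes are not independent replicates, and the part of GC content in these calls was not tested beyond the GC-corrected counts given at the end.

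The most exacting comparison summed the libraries of each line and took the line as the replicate, 3 KO lines against 2 control lines. It called 13 of 19729 genes (0.0659%), 1 higher and 12 lower, and 2501 genes had an unadjusted p under 0.05. In all 13 genes the KO and control libraries did not overlap, which is no further evidence, since the genes were chosen by the same difference. The single rising gene was KCND1, a subunit of a voltage-gated potassium channel. It was at 8.76 to 11.8 CPM in the KO libraries, median 11.1, against 2.24 and 2.59 CPM in NT and 2.81 and 1.98 CPM in Par. Its log2 fold change was 2.16 ± 0.15 (adjusted p = 2.58e-06, and 0.0220 with the line as the replicate), and the 3 KO lines gave 2.22, 2.06 and 2.21.

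Apart from PAPPA2 and SV2A, the falling genes of this set had their highest KO library at 1.65 CPM, in ASTN1. BEND5, which encodes a BEN domain protein, had 1 count over all 6 KO libraries, against 27, 38, 32 and 33 counts in the control libraries. Scaled to depth that is a ratio of 0.00513, with a 95% interval of 0.000129 to 0.0291 for counting error only. C3orf70, a gene without an established function, was at 0.0472 to 0.275 CPM in the KO libraries, median 0.159, against 5.94 and 5.80 CPM in NT and 4.83 and 5.21 CPM in Par. PCYT1B, an enzyme of phosphatidylcholine synthesis, was at 0 to 0.306 CPM in the KO libraries, median 0.107, against 2.85 and 3.71 CPM in NT and 4.85 and 3.96 CPM in Par. In each of these genes the 3 KO lines were low together, while NT minus Par was 0.00 in BEND5, 0.23 in C3orf70 and -0.43 in PCYT1B on the log2 scale.

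ASTN1, a membrane protein that guides neuronal migration along glia, had the smallest p with the line as the replicate (adjusted p = 0.0117). It was at 0.770 to 1.65 CPM in the KO libraries, median 1.18, against 12.8 and 16.2 CPM in NT and 16.1 and 18.9 CPM in Par, a log2 fold change of -3.77 ± 0.15. ARHGAP30, a GTPase-activating protein, was at 0.444 to 1.32 CPM in the KO libraries, median 0.749, against 17.8 and 24.3 CPM in NT and 9.40 and 8.73 CPM in Par, a log2 fold change of -4.19 ± 0.17. Here NT was above Par by 1.21, while the KO lines lay far below both. SV2A, a glycoprotein of synaptic vesicles, was at 7.40 to 17.3 CPM in the KO libraries, median 11.6, against 52.9 and 61.4 CPM in NT and 87.0 and 81.9 CPM in Par. PAPPA2, a protease that cleaves an IGF-binding protein, was at 9.59 to 12 CPM in the KO libraries, median 10.2, against 28.8 and 32.2 CPM in NT and 29.6 and 21.9 CPM in Par. The other falling genes were the RNA-binding protein RBPMS2 at -3.49 and the zinc finger genes ZNF660, ZNF716, ZNF648 and ZNF257 at -4.79, -4.53, -3.39 and -3.26.

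**Figure D1:**
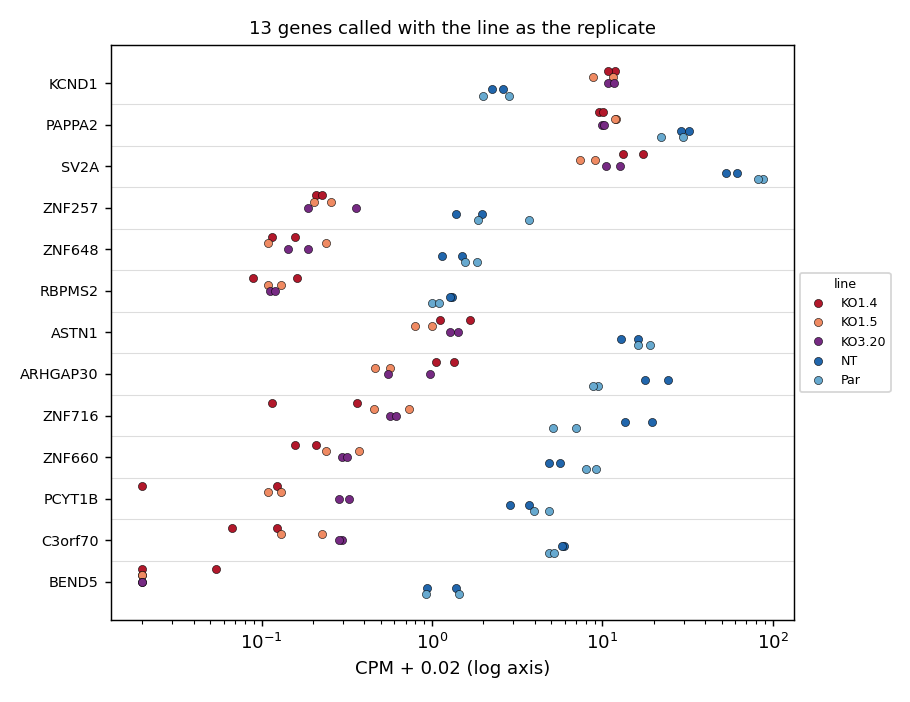
CPM plus 0.02 (log axis) of the 13 genes called with the line as the replicate; each point is 1 library, coloured by line, with the KO lines above NT and Par in each row. All KO points lie to the right of the controls for KCND1 and to the left for the other 12 genes, and BEND5 sits at the left edge in 5 of the 6 KO libraries.

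Promoter sequence was compared across these genes, from RefSeq windows (GRCh38.p14) of 250 bases before to 50 bases after each start. The windows were matched by symbol, for 11200 of the 18361 tested genes and for all 13 of the set. The 12 falling genes had a median of 10.5 CpG dinucleotides per window and a median GC content of 58%, against 26 CpG and 65% for all tested genes matched. In the 250 bases before the start alone they ranged from 1 CpG in ZNF648 to 42 in RBPMS2, so the set held both CpG-poor and CpG-rich promoters. The AP-1 motif TGANTCA, searched on both strands, was in 0% of the 12 windows, in 6.83% of those of all called higher genes, in 5.11% of those of called lower genes and in 4.74% of all. The TEAD motif GGAATG was in 25% of the 12 windows, in 11.5% and 10.4% of the called higher and called lower genes and in 10.7% of all. These shares describe the letters in the window and carry no test. The 250 bases before the start are shown for the rising gene, for BEND5, whose 29 CpG per window are near the median of all genes, and for the CpG-poor ARHGAP30, each on the minus strand and written 5′ to 3′, with every CpG in capitals.
KCND1, chrX:48971845-48972094: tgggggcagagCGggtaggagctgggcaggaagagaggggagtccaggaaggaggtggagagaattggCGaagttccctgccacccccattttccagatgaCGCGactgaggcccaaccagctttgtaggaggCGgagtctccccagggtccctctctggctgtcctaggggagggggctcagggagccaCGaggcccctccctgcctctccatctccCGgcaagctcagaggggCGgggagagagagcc
BEND5, chr1:48776892-48777141: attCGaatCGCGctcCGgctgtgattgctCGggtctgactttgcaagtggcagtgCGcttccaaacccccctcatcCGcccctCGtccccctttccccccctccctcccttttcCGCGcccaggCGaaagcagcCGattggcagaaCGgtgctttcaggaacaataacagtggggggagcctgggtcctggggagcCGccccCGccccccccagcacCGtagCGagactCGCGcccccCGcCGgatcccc
ARHGAP30, chr1:161069892-161070141: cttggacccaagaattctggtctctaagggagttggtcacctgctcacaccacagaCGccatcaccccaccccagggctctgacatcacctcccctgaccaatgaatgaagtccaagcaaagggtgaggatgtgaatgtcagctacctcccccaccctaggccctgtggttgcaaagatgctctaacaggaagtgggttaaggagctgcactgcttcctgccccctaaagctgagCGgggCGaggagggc
KCND1 has 8 CpG in these bases, BEND5 has 21 and ARHGAP30 has 3. The upstream bases of BEND5 thus hold more CpG than those of ARHGAP30, while the RNA of both was far lower in the KO lines than in the controls.

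Among genes whose log2 CPM averaged 3 or more and that were called in each KO line and changed more than NT did from Par, 165 were higher and 165 lower. Genes already named in an earlier text on the whole series were then left out. The 12 remaining rising genes with the largest smallest change over the KO lines include SDC3, a heparan sulphate proteoglycan of the cell surface. SDC3 was at 25.9 to 47.0 CPM in the KO libraries, median 35.2, against 8.79 and 12.8 CPM in NT and 14.4 and 21.6 CPM in Par, a log2 fold change of 1.32 ± 0.14 (adjusted p = 7.67e-05). GALNT10, an enzyme that starts O-linked glycans, was at 38.1 to 60.1 CPM in the KO libraries, median 50.1, against 21.8 and 18.6 CPM in NT and 22.7 and 21.3 CPM in Par, at 1.20 ± 0.08 (adjusted p = 2.33e-06). SOBP, a nuclear protein of inner ear development in mice, was at 9.41 to 15.8 CPM in the KO libraries, median 12.2, against 4.82 and 5.62 CPM in NT and 4.04 and 5.81 CPM in Par. In all 3 genes, every KO library was above every control library.

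FDXR, COQ2, ADA and DACT1 encode enzymes or signalling proteins. FDXR, which passes electrons to mitochondrial cytochromes P450 and to iron-sulphur cluster assembly, averaged 13 ± 2.01 CPM in the KO lines and 5.77 ± 1.26 CPM in the controls (SD, n = 3 KO lines and 2 control lines), a log2 fold change of 1.17. COQ2, a transferase of coenzyme Q synthesis, averaged 15.5 ± 1.14 CPM in the KO lines and 7.44 ± 1.38 CPM in the controls. ADA, adenosine deaminase, averaged 10.2 ± 1.33 CPM in the KO lines and 4.74 ± 0.89 CPM in the controls. DACT1, a Dishevelled-binding protein of Wnt signalling, averaged 14.7 ± 2.25 CPM in the KO lines and 6.80 ± 1.8 CPM in the controls. CTNNA2, the alpha-catenin of neurons, rose by 1.07, and WDR17 and C17orf58 rose by 0.94 and 1.02. NT was already above Par by 0.82 in CTNNA2 and by 0.69 in C17orf58, and the KO lines lay above both. The remaining pair, RP11-782C8.2 and RP11-435B5.5, rose by 1.84 and 1.60 and were highest in KO1.5, at 2.39 and 2.22. Their CPM moved in step over the 10 libraries, and whether they share reads was not tested.

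The largest mean fall among the 12 falling genes was that of COL5A2, a chain of type V collagen. COL5A2 was at 1.54 to 15.0 CPM in the KO libraries, median 11.7, against 26.1 and 26.6 CPM in NT and 30.4 and 34.2 CPM in Par, a log2 fold change of -2.11 ± 0.11 (adjusted p = 3.89e-07). The fall was uneven, at -3.92 in KO1.5 against -1.11 in KO1.4 and -1.29 in KO3.20. UCHL1, a deubiquitinating enzyme abundant in neurons, was at 54.7 to 66.5 CPM in the KO libraries, median 60.0, against 142 and 140 CPM in NT and 109 and 108 CPM in Par, at -1.05 ± 0.07 (adjusted p = 1.68e-06). ANXA3, a phospholipid-binding annexin, was at 50.6 to 63.8 CPM in the KO libraries, median 54.7, against 119 and 102 CPM in NT and 122 and 83.6 CPM in Par. UCHL1 and ANXA3 fell by much the same amount in each KO line.

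RAB38, a GTPase that carries pigment enzymes to melanosomes, averaged 6.47 ± 1.20 CPM in the KO lines and 13.7 ± 0.56 CPM in the controls. PCK2, the mitochondrial phosphoenolpyruvate carboxykinase, averaged 5.27 ± 0.31 CPM in the KO lines and 12.1 ± 3.06 CPM in the controls. KAL1, the extracellular protein anosmin, and PTPRB, a receptor tyrosine phosphatase of endothelium, fell by 1.18 and 1.05. The zinc finger gene ZNF100 fell by 1.68, the transcription factor SOX13 by 1.03 and the RNA-binding protein MEX3D by 0.97. TGFB1I1, an adaptor of focal adhesions, and APOL6, an apolipoprotein L, fell by 1.25 and 1.07, and in both NT minus Par was about as large, at -1.14 and -1.02. APOL6 was at 8.31 to 10.9 CPM in the KO libraries, median 10.3, against 14.4 and 14.7 CPM in NT and 28.5 and 30.6 CPM in Par, so that NT stood between the KO lines and Par.

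**Figure D2:**
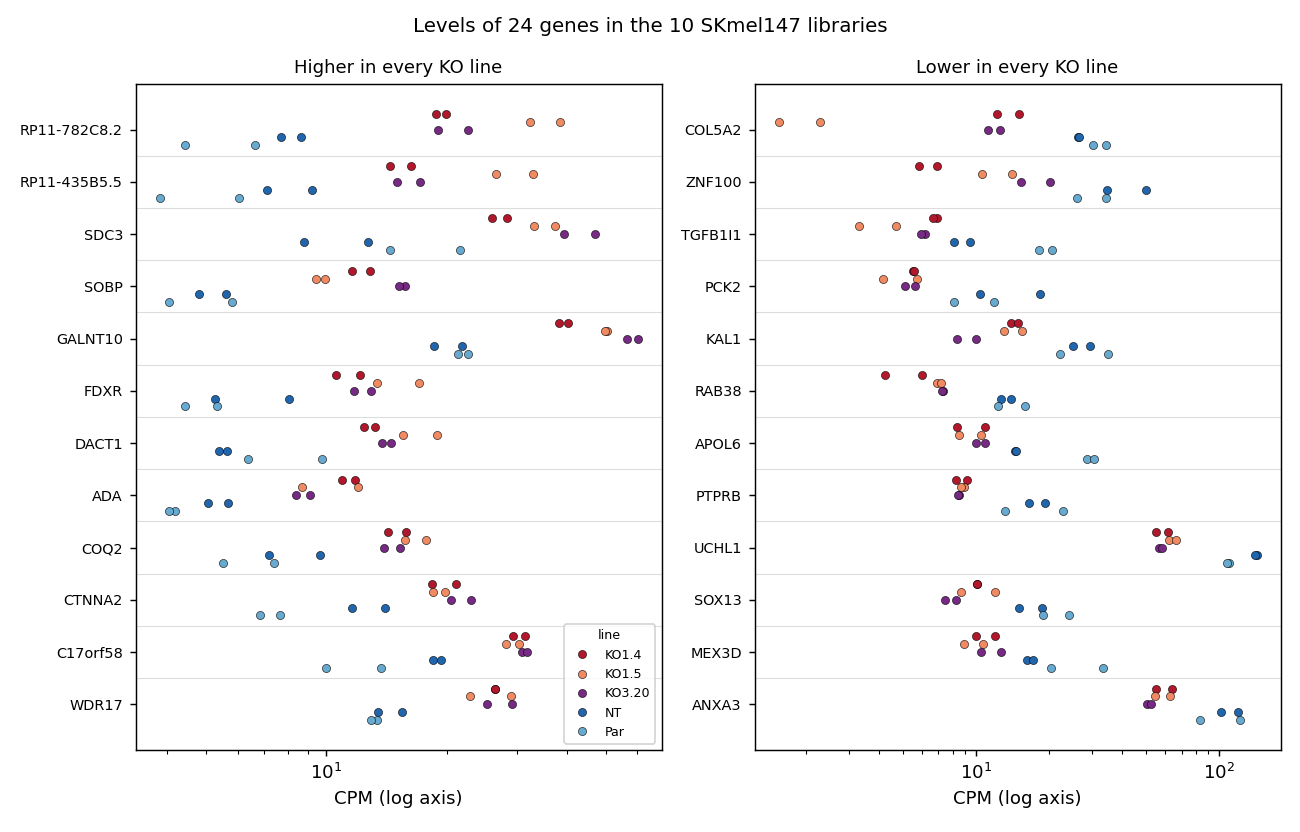
CPM (log axis) of the 12 rising and 12 falling genes ranked by their smallest change over the KO lines. Genes named in the earlier text on the whole series were left out. Each point is 1 library and in each row the KO lines stand above NT and Par. KO points lie right of the control points on the left panel and left of them on the right panel, with KO1.5 far below the other KO lines in COL5A2.

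The most abundant genes that met the same conditions of level and change were ranked by mean CPM, here with genes named earlier kept in. Among the 5 rising ones were HLA-DPA1, a class II antigen-presenting chain, and HLA-E, a ligand of natural killer cell receptors. HLA-DPA1 was at 1065 to 2151 CPM in the KO libraries, median 1913, against 427 and 474 CPM in NT and 578 and 1052 CPM in Par, a log2 fold change of 1.43 ± 0.14 (adjusted p = 3.92e-05). The groups did not overlap, but the higher Par library, at 1052 CPM, came close to the lower KO1.5 library, at 1065 CPM. HLA-E rose by 0.82, and its KO and control libraries overlapped, at 903 to 1289 CPM in the KO libraries and 466 to 990 CPM in the controls. ALDH1A3, which makes retinoic acid, was at 637 to 774 CPM in the KO libraries, median 731, against 385 and 384 CPM in NT and 480 and 501 CPM in Par, at 0.71 ± 0.06 (adjusted p = 1.62e-05). GPRC5A, a receptor-like protein induced by retinoic acid, was at 489 to 536 CPM in the KO libraries, median 518, against 306 and 304 CPM in NT and 292 and 236 CPM in Par, at 0.86 ± 0.08. Its rise was 0.85, 0.87 and 0.87 in the 3 KO lines. APP, the precursor of amyloid beta, was at 714 to 1088 CPM in the KO libraries, against 542 to 577 CPM in the controls. APP lies on chromosome 21 and rose by 0.91 in KO3.20 against 0.39 and 0.36 in KO1.4 and KO1.5.

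The 5 most abundant falling genes were ACTG1, a cytoplasmic actin, HNRNPU, a nuclear RNA-binding protein, MCL1, a protein that blocks apoptosis, TPM3, a tropomyosin, and HDGF, a heparin-binding growth factor. MCL1 was at 542 to 631 CPM in the KO libraries, median 575, against 867 and 738 CPM in NT and 912 and 711 CPM in Par, a log2 fold change of -0.48 ± 0.09 (adjusted p = 0.00269). TPM3, HDGF and HNRNPU were at -0.49, -0.45 and -0.34. These 4 genes, and not ACTG1, lie on chromosome 1. Their tested protein-coding neighbours, up to 20 on each side, had medians of -0.27 around MCL1, -0.20 around TPM3, -0.24 around HDGF and -0.21 around HNRNPU, so each changed by more than its neighbourhood but in the same direction. ACTG1 was at 2882 to 3144 CPM in the KO libraries and 3434 to 4765 CPM in the controls. It did not pass against NT alone, at -0.20 (adjusted p = 0.197).

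The positions of the calls were then examined. Of the tested genes, 15287 could be placed on a chromosome by symbol in GENCODE 29, which served only for order and chromosome. Chromosome 1 held 10% of the placed genes and 17% of the lower calls, 286 of its 1530 genes (18.7%), and 87 higher calls (5.69%). The lower calls lay on the long arm, taken as the genes beyond the widest gap between protein-coding gene starts. There 204 of 708 genes were called lower (28.8%) and 25 higher (3.53%), against 82 lower (9.98%) and 62 higher (7.54%) of 822 genes on the short arm. For KO1.4 the long arm median was -0.175, for KO1.5 it was -0.181 and for KO3.20 -0.236, each against the mean of the controls. It held 59 of the 324 placed genes that were lower in each KO line (18.2%), while it held 4.63% of the placed genes tested.

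Against NT alone the KO lines had a median of -0.27 on that arm with 208 genes lower, and against Par alone -0.12 with 142 genes lower, where 6.08% and 11.7% of all tested genes were lower against NT and Par. NT was above Par there by a median of 0.15. The arm was not even. Over the block from ATF6 to PRRX1 the KO lines had a median of -0.59 against NT and -0.03 against Par, and over the block from LHX9 to MDM4 of -0.16 against NT and -0.32 against Par. Of the 47 placed falling genes chosen by rule, 14 lie on chromosome 1, against 1 of 28 placed rising genes chosen by rule. Among them are ASTN1, SV2A, PAPPA2, ARHGAP30, ZNF648, SOX13, CD55, H3F3A and DAP3 on the long arm. BEND5 lies on the short arm, where its neighbours had a median of -0.07. ASTN1, ARHGAP30, ZNF648 and SV2A, at -3.77, -4.19, -3.39 and -2.62, had neighbours at -0.22, -0.23, -0.22 and -0.26. CD55, H3F3A and DAP3, at -0.63, -0.62 and -0.40, had neighbours at -0.22, -0.17 and -0.20. DNA was not measured, so a lower number of gene copies and lower transcription per copy cannot be told apart.

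Chromosomes 12, 13 and 22 were shifted in another way. On the long arm of chromosome 12, 153 of 574 genes were called lower (26.7%), on its short arm 50 of 199 higher (25.1%), on chromosome 13 72 of 327 higher (22%) and on chromosome 22 65 of 346 lower (18.8%). The 3 KO lines moved together on each of them, by medians of -0.155 to -0.184 on the long arm of chromosome 12, 0.145 to 0.171 on chromosome 13 and -0.129 to -0.155 on chromosome 22. Against NT alone the medians were near 0, at 0.00 on the long arm and -0.02 on the short arm of chromosome 12 and -0.03 on chromosome 13, and at 0.10 on chromosome 22. Against Par alone they were -0.37, 0.33, 0.36 and -0.42, and NT minus Par gave -0.37, 0.31, 0.39 and -0.53. On these chromosomes the KO lines thus stood with NT, the other infected line, and apart from Par. The lower calls on the long arm of chromosome 12 numbered 34 against NT and 258 against Par, and the higher calls on chromosome 13 numbered 15 and 128, where 5.22% and 8.01% of all genes were higher against NT and Par.

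**Figure D3:**
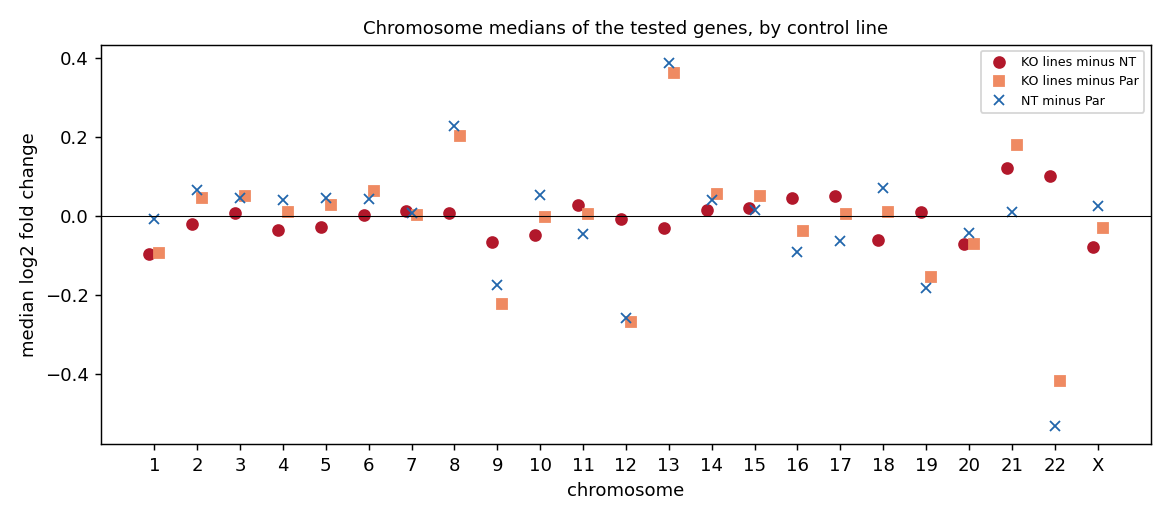
Median log2 fold change of the tested genes on each chromosome, for the KO lines minus NT (circles), the KO lines minus Par (squares) and NT minus Par (crosses). On chromosomes 12, 13 and 22 the squares follow the crosses and the circles lie between -0.0313 and 0.101, while on chromosome 1 circle and square lie together, at -0.0953 and -0.0926.

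Single KO lines stood apart on further chromosomes. In KO1.5 the short arm of chromosome 8 had a median of -0.27 and its long arm 0.36, against 0.14 and 0.04 in KO1.4 and 0.13 and 0.05 in KO3.20. In KO1.4 the long arm of chromosome 9 had a median of -0.35, against -0.05 in KO1.5 and -0.05 in KO3.20. In KO3.20 chromosome 20 had a median of -0.28 and chromosome 21 of 0.37, against 0.05 and 0.02 in KO1.4 and 0.03 and 0.09 in KO1.5. In KO1.5 chromosome 19 was at -0.17, against -0.01 in each of the other KO lines. Whether these shifts reflect gene copies was not tested. Over the 3 KO lines together, chromosome 9 had 116 lower calls of 639 (18.2%) and chromosome 8 had 88 higher calls of 522 (16.9%). The lower calls on chromosome 9 numbered 44 against NT alone and 165 against Par alone, and the higher calls on chromosome 8 numbered 30 and 118. Of 325 blocks of about 40 neighbouring genes, 2 had a KO median under -0.3 and 1 over 0.3. The 2 low ones were FRMD4A to PDSS1 on chromosome 10, at -0.325, and FAM122B to HSFX1 on X, at -0.31. Against NT alone they were at -0.18 and -0.315, and against Par alone at -0.465 and -0.198. The chromosome 10 block from TUBB8 to PRPF18 was at -0.285, with 47.5% of its genes called lower.

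**Figure D4:**
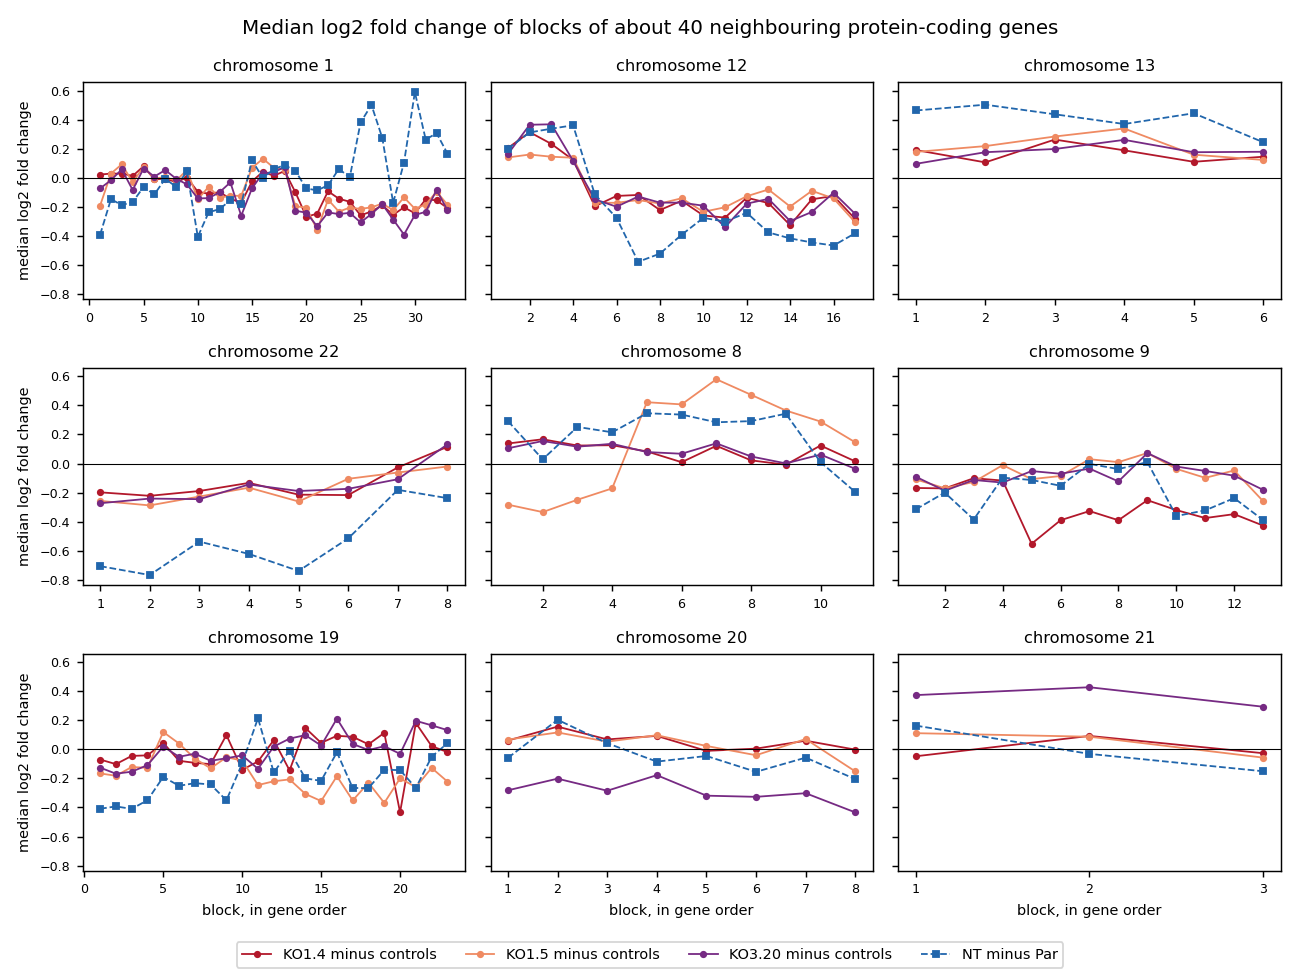
Median log2 fold change of blocks of about 40 neighbouring protein-coding genes in gene order along 9 chromosomes, for each KO line minus the mean of the controls and for NT minus Par (dashed). The KO lines run together below 0 on the long arm of chromosome 1, share steps with NT minus Par on chromosomes 12, 13 and 22, and part on chromosomes 8, 9, 20 and 21.

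Runs of at least 5 neighbouring called genes with 1 sign numbered 10. The longest lay in the HLA class II region, 9 neighbours from HLA-DRA to HLA-DQB1-AS1, whose median in KO1.4 was 1.52, in KO1.5 0.53, and that of KO3.20 1.65, with NT minus Par at -1.10. These genes have near-identical copies and their counts are uncertain. HLA-DRA itself was at 1449 to 3597 CPM in the KO libraries and 758 to 1789 CPM in the controls, so that the groups overlapped. In the HOXA cluster, which sets position along the body axis, HOXA3, HOXA4, HOXA5 and the antisense genes between them rose, with medians of 0.72, 0.65 and 1.36 in the 3 KO lines. The complement genes C1R, C1S and C1RL rose beside LPCAT3 on chromosome 12. On the X chromosome a run of 6 from SPANXN3 to FMR1 fell, by medians of -1.04, -2.23 and -0.96, and on chromosome 19 a run of 6 zinc finger genes from ZNF98 to ZNF91 fell, by -2.25, -1.02 and -0.78. On chromosome 1, CD55 and CD46, which shield cells from complement, fell in a run of 6 at medians of -0.59, -0.57 and -0.58.

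Gene groups were described through lists, by how many tested members passed in each direction, beside the 8.07% higher and 9.6% lower of all genes and their median of -0.01. Members outside the 78 genes chosen by rule were named after their values were seen.

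Among secreted and surface signals, the TNF superfamily with its receptors and TRAF adaptors had 10 of 30 members higher (33.3%) and 4 lower, with a median of 0.28. TNFSF9, a ligand that costimulates T cells, was at 1.20 to 2.71 CPM in the KO libraries, median 1.75, against 0.747 and 0.792 CPM in NT and 0.449 and 0.430 CPM in Par. The receptors LTBR, TNFRSF10C and EDA2R rose by 0.33, 0.82 and 0.51, and TNFRSF11B, the decoy receptor osteoprotegerin, fell by 0.84. The number of higher members was 4 against NT alone, 4 against Par alone and 5 without KO1.4, with the median between 0.22 and 0.36 in these settings. With limma voom and the line as a block, 2 were higher and 0 lower. Complement and coagulation had 8 of 27 higher, C1R at 1.55, C1S at 1.01 and the clotting inhibitor PROS1 at 0.70 among them, and 3 lower, the regulators CFI, CD55 and CD46. C1R was at 6.87 to 12.6 CPM in the KO libraries, median 11.3, against 1.87 and 2.27 CPM in NT and 4.71 and 6.54 CPM in Par. Cytokine receptors with JAK, STAT and SOCS proteins had 11 of 54 higher and 5 lower, against NT alone 8 and 1, against Par alone 6 and 10, and 5 higher without KO1.4 R2. None of them (0) passed in limma voom, which takes the line as a block. NF-kappaB factors with Toll-like receptors had 1 of 30 in each direction, with 0 lower against NT alone, 7 against Par alone and 4 without Par R1. Eph receptors and ephrins, which repel cells on contact, had 5 of 16 lower and 1 higher, EPHA7 and EPHA5 at -1.17 and -1.16, with 3 lower against NT alone or without KO1.5. FGF, PDGF, VEGF, HGF and KIT ligands and receptors had 3 of 28 in each direction, FGF12 rising by 0.96. The Notch pathway had 7 of 33 higher and 5 lower, NOTCH1, the receptor, at -1.0 and HES1, a target, at 0.89, with 2 higher without KO3.20.

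NOTCH1 was at 20.1 to 36.7 CPM in the KO libraries, median 31.2, against 42.3 and 49.3 CPM in NT and 62.8 and 89.2 CPM in Par. It lies on chromosome 9, where its neighbours had a median of -0.24, and it fell most in KO1.4, at -1.38. All KO libraries were below all control libraries, and NT minus Par was -0.73. Orphan and adhesion G protein-coupled receptors had 5 of 56 higher and 11 lower. Adenylyl cyclases, phosphodiesterases and protein kinase A had 5 of 28 higher and 7 lower, PDE10A, which breaks down cyclic nucleotides, at -4.51. PDE10A was at 0.0944 to 2.36 CPM in the KO libraries, median 0.315, against 14.6 and 12.1 CPM in NT and 9.09 and 9.21 CPM in Par, with KO3.20 the highest of the KO lines. No member of that list was called higher without KO3.20.

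Among cytoskeletal genes, intermediate filaments had 8 of 23 lower (34.8%) and 1 higher, with a median of -0.32. VIM, the vimentin of mesenchymal cells, was at 1755 to 2372 CPM in the KO libraries, median 1964, against 2570 and 2090 CPM in NT and 3476 and 2770 CPM in Par, and fell by 0.44. The lamin gene LMNA fell by 0.41. VIM lies in the chromosome 10 block of neighbouring genes from FRMD4A to PDSS1, whose median was -0.325. LMNA lies in the chromosome 1 block from RUSC1 to ETV3L, whose median was -0.214. Both thus changed in the direction of their neighbours. The hair keratins KRT81, KRT83, KRT85 and KRT86 fell in the mean of the KO lines, while KO1.5 was at 0.93, 1.63, 1.07 and 1.20. KRT81 was at 20.1 and 22.4 CPM in KO1.4, 77.2 and 104 CPM in KO1.5 and 3.55 and 2.66 CPM in KO3.20, against 16.6 and 16.9 CPM in NT and 144 and 126 CPM in Par. NT and Par thus differed in KRT81 by more than KO and controls did, and against NT alone 2 of the 23 filament genes were lower. With limma voom and the line as a block 1 was lower, and with the line as the replicate 0. Gap and tight junctions had 3 of 23 higher, the tight junction protein CGN at 2.52 among them, and 5 lower, among them GJA1 and CLDN1 at -0.65 and -0.72. Intraflagellar transport and the BBSome, which build cilia, had 5 of 42 higher and 0 lower, IFT27 at 1.31 and BBS2 at 0.68.

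The SOX, FOX and KLF list and the homeobox list held more lower than higher calls, and the clock list more higher ones. SOX, FOX and KLF factors had 16 of 64 lower (25%) and 7 higher, with a median of -0.21. SOX11, a factor of neural progenitors, was at 34.5 to 42.5 CPM in the KO libraries, median 39.7, against 60.0 and 56.4 CPM in NT and 73.5 and 95.5 CPM in Par. SOX9, a factor of neural crest and cartilage, was at 12.5 to 31.7 CPM in the KO libraries, median 17.3, against 36.2 and 32.5 CPM in NT and 44.3 and 37.5 CPM in Par. It fell in KO1.4 and KO3.20, at -1.11 and -1.56, and was at -0.32 in KO1.5, which did not pass. KLF4 fell by 0.58, while SOX4, FOXO1 and KLF9 rose by 0.52, 0.69 and 1.05. Against NT alone 8 members were lower and the list's median was -0.04. Homeobox factors outside the HOX clusters had 16 of 73 lower (21.9%) and 7 higher, DLX1 at -0.68 and MEIS3 at 1.62, with 6 lower against NT alone. Nuclear receptors and coregulators had 7 of 43 lower and 6 higher. RARB, a retinoic acid receptor, was at 55.4 to 80.4 CPM in the KO libraries, median 65.7, against 32.4 and 24.9 CPM in NT and 39.0 and 35.1 CPM in Par, a log2 fold change of 0.99 ± 0.10. The circadian clock had 7 of 20 higher (35%) and 2 lower, with a median of 0.16, BHLHE41, PER1 and ARNTL at 0.75, 0.60 and 0.42. Clock members called higher numbered 4 against NT alone, 3 against Par alone, 2 without KO3.20 and 0 with limma voom and the line as a block.

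Histones had 4 of 63 higher and 6 lower. H3F3A, which encodes the histone variant H3.3, was at 134 to 162 CPM in the KO libraries, median 150.1, against 271 and 233 CPM in NT and 178 and 241 CPM in Par, and it has near-identical copies. Histone methylases, demethylases, acetylases and deacetylases had 9 of 102 higher and 13 lower, SETD8, the methylase of histone H4, at -0.52.

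Cytosolic ribosomal proteins had 6 of 84 higher (7.14%) and 1 lower, with 0 higher against NT alone and 15 against Par alone. Against both controls, mitochondrial ribosomal proteins had 1 of 76 higher and 4 lower, and proteasome subunits 1 of 47 higher and 2 lower. Aminoacyl-tRNA synthetases, which load amino acids on tRNA, had 9 of 39 lower (23.1%) and 0 higher, although the list's median was 0.01. WARS, the enzyme for tryptophan, was at 102 to 114 CPM in the KO libraries, median 105.8, against 136 and 155 CPM in NT and 158 and 146 CPM in Par, a log2 fold change of -0.47 ± 0.07 (adjusted p = 0.000566). SARS and GARS were at -0.50 and -0.40. Against Par alone, 3 synthetases were lower and 2 higher. Heat shock proteins and the chaperonin had 11 of 81 lower and 5 higher, and 4 lower against NT alone. HSPA1A was at 229 to 440 CPM in the KO libraries, median 305, against 463 and 493 CPM in NT and 687 and 812 CPM in Par, and it has a near-identical copy in HSPA1B.

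Among transporters, solute carriers had 32 of 235 higher (13.6%) and 26 lower (11.1%). SLC26A2, a sulphate transporter, was at 99.0 to 246 CPM in the KO libraries, median 202, against 95.5 and 84.9 CPM in NT and 58.3 and 64.9 CPM in Par, a log2 fold change of 1.24 ± 0.09 (adjusted p = 4.32e-06). KO1.5 was the lowest KO line, at 0.61. SLC1A4, a carrier of neutral amino acids, was at 12 to 17.6 CPM in the KO libraries, median 14.5, against 31.2 and 35.2 CPM in NT and 18.3 and 22.5 CPM in Par. The V-ATPase and lysosomal membrane list had 7 of 41 higher and 2 lower, and ABC transporters had 2 of 34 higher and 3 lower, ABCA5 at 0.61. Sodium, calcium, chloride and TRP channels had 8 of 68 higher and 13 lower, and metallothioneins and zinc transporters 4 of 27 higher and 6 lower. TRPV4, a cation channel opened by osmotic stress, was at 0.0296 to 0.309 CPM in the KO libraries, median 0.0970, against 1.43 and 1.77 CPM in NT and 2.81 and 4.39 CPM in Par.

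Lipid and glycan enzymes went both ways. Triglyceride, phospholipid and lipid droplet enzymes had 6 of 60 higher and 10 lower, AGPAT9 at 0.51 and, besides PCYT1B, MGLL, which releases fatty acids from monoglycerides, at -1.37. MGLL was at 12.9 to 35.9 CPM in the KO libraries, median 29.8, against 32.9 and 38.3 CPM in NT and 114 and 99.3 CPM in Par, with KO3.20 the lowest line at 12.9 and 13.2 CPM. Sialyl, fucosyl, galactosyl and GalNAc transferases had 8 of 67 higher and 12 lower, GALNT10 leading the first and ST6GAL1, which caps N-glycans with sialic acid, the second of the genes named, at -0.96. Aldehyde, aldo-keto, cytochrome P450 and conjugating enzymes had 13 of 87 higher and 12 lower. MGST1, a glutathione transferase of membranes, was at 12 to 21.3 CPM in the KO libraries, median 13.1, against 67 and 49.5 CPM in NT and 52.8 and 36.0 CPM in Par, a log2 fold change of -1.80 ± 0.12. It fell although its neighbours on the short arm of chromosome 12 had a median of 0.17.

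Synaptic adhesion molecules had 11 of 48 higher and 11 lower (22.9% each). The higher ones numbered 5 without KO1.4 R2, 5 without KO3.20, 6 against NT alone and 3 with limma voom and the line as a block. SLITRK6, a membrane protein that promotes synapses, was at 7.19 to 21.7 CPM in the KO libraries, median 10.6, against 3.77 and 2.70 CPM in NT and 1.71 and 1.85 CPM in Par. SLITRK2, its relative, was at 0.944 and 1.51 CPM in KO1.4, 0.355 and 0.733 CPM in KO1.5 and 13.9 and 13.4 CPM in KO3.20, against 25.6 and 22.8 CPM in NT and 24.4 and 21.8 CPM in Par. Neurotransmitter receptors had 7 of 31 in each direction (22.6% each), 4 of either kind in each KO line. HTR7, a serotonin receptor, rose by 0.65, and DRD2, a dopamine receptor, by 1.46. Long intergenic non-coding RNAs with LINC names had 15 of 99 higher and 3 lower, none in each KO line. LINC00704 was at 20.5 to 31.1 CPM in the KO libraries, median 23.5, against 16.2 and 13.7 CPM in NT and 19.3 and 10.5 CPM in Par.

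**Figure D5:**
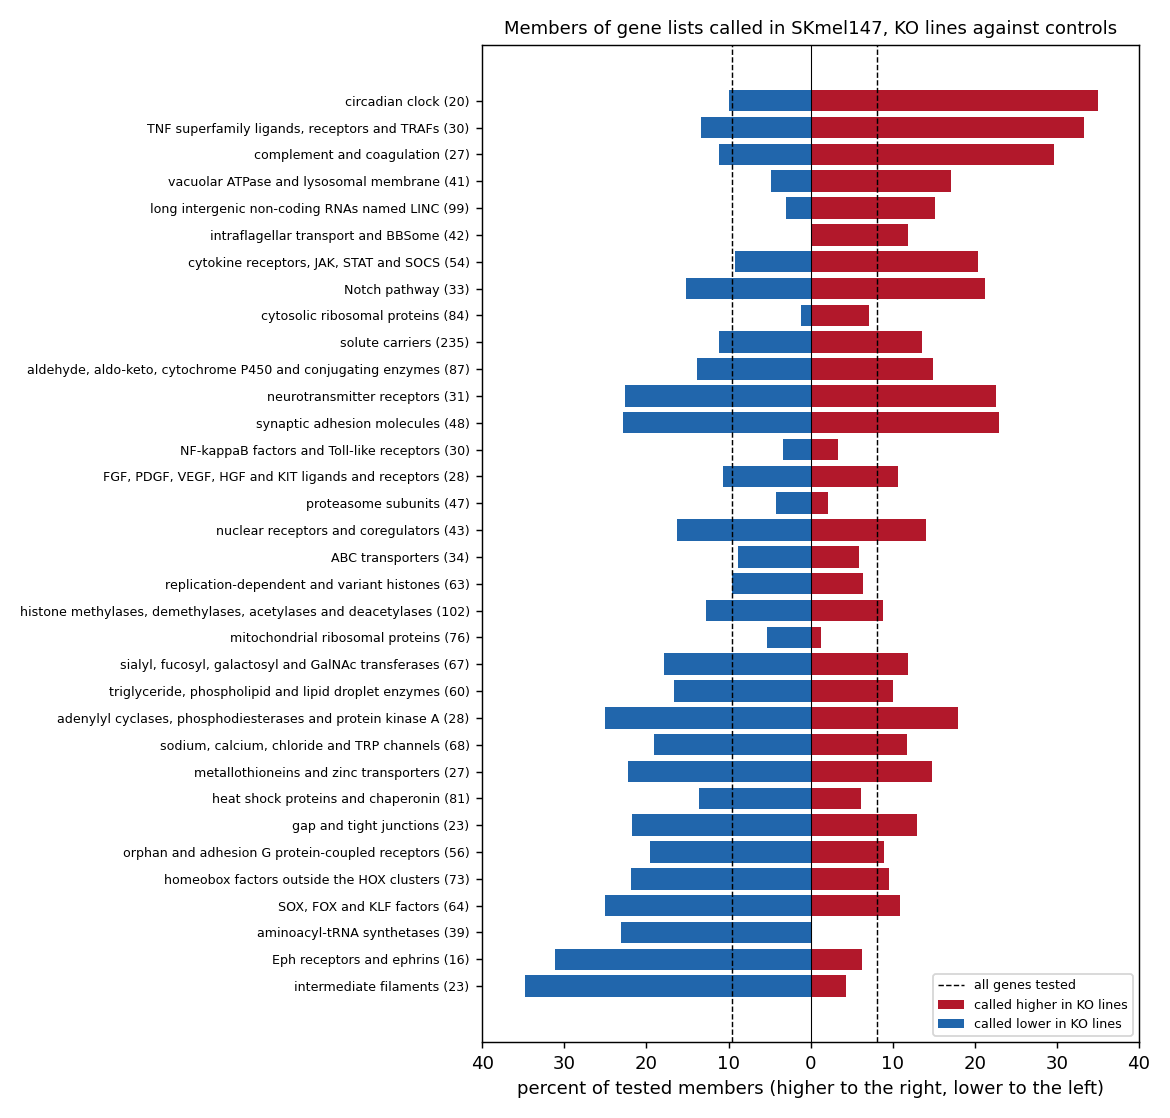
Share of tested members called higher (right) and lower (left) in the KO lines for the gene lists described, with the number tested in brackets; dashed lines mark all genes tested, 8.07% higher and 9.6% lower. The circadian clock and the TNF superfamily reach furthest to the right and intermediate filaments furthest to the left, while proteasome subunits and NF-kappaB factors stay inside both lines.

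The KO lines also differed among themselves, and 48 genes were called higher in 1 KO line and lower in another. TIMP3, an inhibitor of matrix metalloproteases, was at 17.1 and 16.0 CPM in KO1.4, 1.63 and 1.43 CPM in KO1.5 and 66.9 and 67 CPM in KO3.20, against 9.16 and 8.61 CPM in NT and 23.5 and 30.8 CPM in Par. Its mean CPM was higher in the KO lines, at 28.3 against 18 CPM in the controls, but its log2 fold change was -0.38, since that averages the lines on the log scale. EDIL3, an extracellular protein that binds integrins, was at 2.69 and 3.2 CPM in KO1.4, 3.23 and 1.94 CPM in KO1.5 and 23.5 and 27.5 CPM in KO3.20, against 7.40 and 7.74 CPM in NT and 3.03 and 11 CPM in Par, and was not called in the mean (adjusted p = 0.509). The keratin pseudogene KRT121P had a fold change of -1.58 for KO1.4, 1.21 for KO1.5 and -3.24 for KO3.20.

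In 501mel, where KO lines against controls called 27.8% of 19518 genes in a joint fit of all 18 libraries, 21 of the 76 named genes called in SKmel147 besides ARID2 were called with the same sign, 7 with the other sign and 48 not at all. The KO effects of SKmel147 and 501mel differed past the threshold for 47 of them, where 21.3% of all genes were. The named genes were chosen by their SKmel147 effect, which is part of this difference, so their share cannot be set against that of all genes. The direction was shared and called in 501mel for SDC3 at 0.84, SLC26A2 at 0.87, ADA at 0.57, KCND1 at 1.15, CTNNA2 at 1.60, PCK2 at -1.08, ST6GAL1 at -0.42 and WARS at -0.75. The sign turned in HSPA1A, at 0.87 in 501mel against -0.92 in SKmel147, in ACTG1, at 0.44 against -0.37, and in ZNF100, at 1.81 against -1.68. DACT1 and FGF12 fell in 501mel, by 0.60 and 0.93, and rose in SKmel147. Of the 48 not called in 501mel, 15 had no usable estimate there, with an SE of 0 in 7 (UCHL1, ANXA3, ASTN1, ARHGAP30, KAL1, TGFB1I1 and SLITRK6) and over 100 in 8. These 15 carry no information on 501mel, which leaves 33 with an estimate that did not pass.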

How the data were processed

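Per the labels' protocols, poly(A) RNA went into strand-keeping libraries. Reads were aligned with STAR 2.6.0 and counted per gene with featureCounts on GRCh37, per the submitters' processing notes; for annotation, strand and multi-mapping settings, the sources used here give none. The authors deposited raw counts per gene, and no column went unmapped to a sample (0).

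Counts of the 10 SKmel147 libraries were tested with edgeR 4.0.16 in R 4.3.3 (TMM scaling, low-count filter, quasi-likelihood test, lines at equal weight, two-sided, Benjamini-Hochberg adjusted p under 0.05 over all genes tested). Fold changes are log2 with their SE, and SD is over line means. Depth limits precision for genes of few counts, and count intervals cover counting error only, since reads are not independent molecules. A joint fit of all 18 libraries gave the 501mel effect and the difference. Alternatives used limma 3.58.1, DESeq2 1.42.0, summed lines, other controls, left-out lines and libraries, GC and length correction and a replicate block. Of 56629 symbols, 35386 matched GENCODE 29, 1362 of them through an older symbol. The edgeR comparison of KO lines and controls was tested on simulated counts, in which the lines of a group did not differ. The other fits were not tested on simulated counts. Figures used matplotlib 3.10.9.

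The members and the lists were chosen with earlier results of these data known. Named genes include ARID2. The next choices needed a mean log2 CPM of at least 3, a call in each KO line and a change above NT minus Par. Of genes meeting these, the 12 per direction with the largest smallest change over the KO lines were named. Genes in the earlier text on the whole series were left out of that choice. Without that exclusion, the 5 most abundant per direction and the rising and falling member of smallest p per list were added. Also named are those called with the line as the replicate and up to 3 that changed both ways. No gene met the rule for switching between off and on (0). Results of 1 gene list and of a few genes are not reported here.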

Additional observations from a re-analysis of the deposited data

Results flagged for a closer look

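Among the 6 KO libraries, 1 library stood far from the others in 4 genes, by its gap to the nearest library over the whole range. That ratio was 0.65 for PCK2, where KO1.5 R1 was lowest, 0.633 for RAB38, where KO1.4 R1 was lowest, and 0.676 for KCND1, where KO1.5 R1 was lowest. It was 1 for BEND5, which follows from its single count, held by KO1.4 R2. Chance alone marks about 1 in 20 groups in this way. With 78 genes chosen by rule, 4 such marks are about what chance would give.

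The KO effect differed between SKmel147 and 501mel, by the test of the difference in the joint edgeR fit, for 49 of the named genes. The differences below are SKmel147 minus 501mel on the log2 scale. It was positive for ARID2 at 0.312, RP11-782C8.2 at 1.69, RP11-435B5.5 at 1.28, COQ2 at 1.12, FDXR at 0.884, C17orf58 at 1.24 and SDC3 at 0.488. Further positive differences were DACT1 at 1.75, WDR17 at 0.809, ADA at 0.534, GALNT10 at 1.03, HLA-E at 0.643, APP at 0.532 and ALDH1A3 at 3.26. Also above 0 were FGF12 at 1.9, PROS1 at 0.588, ARHGEF17 at 0.801, BBS2 at 0.853, SLC26A2 at 0.375, ABCA5 at 0.56 and AGPAT9 at 0.549. Positive too were WARS at 0.286, FOXJ2 at 0.381, RARB at 0.916, HTR7 at 2.73, KCND1 at 1.01 and EDIL3 at 6.9. It was negative for SOBP at -1.11, COL5A2 at -1.61, ZNF100 at -3.48, RAB38 at -1.19, SOX13 at -0.955, MEX3D at -0.883 and ACTG1 at -0.793. Further negative differences were TPM3 at -0.382, NOTCH1 at -0.701, CD55 at -0.498, SRGAP1 at -0.629, SLC1A4 at -1.04, ST6GAL1 at -0.528 and HSPA1A at -1.78. Also below 0 were H3F3A at -0.423, SETD8 at -0.282, SLITRK2 at -3.16, PCYT1B at -3.46, RBPMS2 at -1.85, SV2A at -2.14 and ZNF257 at -6.35. Negative too were  and ZNF648 at -4.69.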

How the results depend on the processing

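The counts of called genes depended on the controls and on what counts as a replicate. KO against controls gave 2076 calls (959 higher, 1117 lower) against NT alone and 2094 (934 higher, 1160 lower) without KO3.20, and 1627 of the calls against NT alone were among the 3245 main ones. It gave 597 (246 higher, 351 lower) with limma voom and the line as a block, 13 (1 higher, 12 lower) with the line as the replicate, and 741 (298 higher, 443 lower) with changes over 1 on the log2 scale. With GC and length correction 2260 were higher and 2575 lower. Called in each KO line were 581 higher and 650 lower with that correction, 82 and 124 over the log2 limit, 642 lower against Par alone and 493 higher without KO1.5. NT minus Par gave 2680 calls with no low-count filter, 1130 without KO1.4, 2635 with GC and length correction, 570 over the log2 limit and 3689 with the ribosomal RNA share as a covariate, a setting chosen after seeing the data that gave 3739 KO calls. Differences between the cell lines among named genes numbered 23 over the log2 limit, against 49.

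Leaving out 1 library gave 2232 to 3349 calls (990 to 1555 higher, 1210 to 1794 lower), 111 to 347 higher and 121 to 374 lower in each KO line, 436 to 2375 for NT minus Par and 42 to 48 differences. The R1 minus R2 differences of 1 line were correlated with those of another, at -0.404 to 0.484 and over 0.1 in 3 of 10 pairs of lines. Those of KO1.5, NT and Par went together, at 0.264 to 0.484. KO3.20 ran against KO1.5 at -0.404 and against NT at -0.364. The replicate numbers thus did not line up across all lines, and the cause was not tested. The replicate block gave 3083 calls (1407 higher, 1676 lower) and ended no call of a named gene. TIMP3 changed sign, to 0.43 against NT alone, 1.11 without KO1.5 and 0.69 with the line as the replicate, and the cause was not tested. Of 78 named genes, 13 passed with the line as the replicate. There 63 kept their sign without passing, as did 5 with voom and 3 against NT alone. TIMP3, whose sign turned, also did not pass in edgeR with the line as the replicate (adjusted p = 0.850) or against NT alone (adjusted p = 0.0596). The sign of EDIL3 turned too, from -0.31 in the main comparison to 0.60 with the line as the replicate, and it passed in neither.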
